A study of Mus musculus with 16 samples.

Results

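The OAS genes examined here were Oas1a, Oas1g, Oas2, Oas3, Oasl1 and Oasl2, 6 of the 12 genes of the family in the count tables and 6 of the 52525 genes that all 3 tables share. They were chosen by symbol, with their difference between Cul4b knockout and WT mice already known, so every KO against WT value of these 6 genes is a description and is given without a test. RNA-seq was performed on 16 libraries of C57BL/6 mice in 3 experiments. Freshly isolated crypts of the small intestine gave 4 WT and 4 KO-IEC libraries. Intestinal organoids were compared as 2 WT and 2 KO-IEC libraries and, separately, as 2 WT and 2 KO-CAG libraries. Cul4b, the scaffold of a RING ubiquitin ligase, is X-linked, and the methods give both WT and KO mice a floxed allele as their only copy (Cul4b fn/Y). In KO-IEC mice it was deleted by pVillin-Cre, which is active in epithelial cells of the gut, and in KO-CAG by CAG-CreERT2, a ubiquitous Cre that tamoxifen turns on. Whether the WT of the KO-CAG experiment carried CreERT2 or received tamoxifen was not stated, and neither was whether the replicate organoid libraries, called biological replicates in the methods, came from separate animals or cultures, so their p-values measure the spread between these libraries, which may in part be technical.

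OAS proteins are part of the antiviral response to interferon. OAS enzymes bind double-stranded RNA and make short oligoadenylate messengers, which lead to the cutting of viral and cellular RNA. Interferon binding to its receptor activates STAT and IRF transcription factors, which bind interferon-stimulated response elements in the promoters of OAS genes. Oas1a and Oas1g are small active enzymes, whereas Oas2 and Oas3 are larger proteins built of repeated OAS units. Oasl2 and Oasl1 carry ubiquitin-like domains, and Oasl1 is known for restraining the translation of Irf7. Gut epithelium receives both type I and type III interferon.

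Total counts were 7348191 to 16881395 per library, and the floor used here, 3 counts, equals 0.178 to 0.408 CPM (counts per 1000000 counts of the library). Cul4b was lower in every KO library than in any WT library. In crypts it stood at 33.8 ± 3.00 CPM in WT against 1.43 ± 0.631 CPM in KO-IEC (SD, n = 4 each), in IEC organoids at 78.1 ± 7.06 and 1.72 ± 0.0485 CPM, and in CAG organoids at 71.3 ± 1.96 and 4.25 ± 1.31 CPM (n = 2 each). The summed level of 6 epithelial markers was 4985 to 9362 CPM in all libraries. Crypt libraries also differed in mitochondrial ribosomal RNA, at 18.9 to 25.3 CPM in WT replicate 1 and KO-IEC replicates 1 to 3, at 834 and 1078 CPM in WT replicate 4 and KO-IEC replicate 4, and at 2840 and 2873 CPM in WT replicates 2 and 3. This difference separated the libraries partly along genotype, and values within its classes are therefore given below.

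All 12 OAS genes lie on mouse chromosome 5 (GRCm38), in a pair and a cluster. Oasl2 (chr5:114896936-114912234) and Oasl1 (chr5:114923240-114937915) are neighbours on the plus strand. The cluster runs from Oas2 (chr5:120730333-120749853) through Oas3 (chr5:120753098-120777661), Oas1e, Oas1c, Oas1b, Oas1f, Oas1h, Oas1g (chr5:120876142-120887613) and Oas1a (chr5:120896256-120907521) to Oas1d. The positions of all 12 in the tables were those of GENCODE M21. Oas1a and Oas1g are near copies of each other. Of all stretches of 150 bases in the longest transcript of Oas1a, 32.4% occurred unaltered in another gene, chiefly Oas1g, and 30.1% of those of Oas1g did so, chiefly in Oas1a. For Oas2, Oas3, Oasl1 and Oasl2 that share was 0%. How the counting treated reads that fit both genes was not stated, so the split of reads between Oas1a and Oas1g is less certain than the other values.

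RefSeq promoter windows (GRCm38.p6, 250 bases before to 50 after the gene start) were at hand for 8 of the 12 genes, without Oas2, Oas1b, Oas1d and Oas1e. The core letters of the interferon-stimulated response element, GAAANNGAAA, were searched on both strands and occurred in 3.44% of all 32851 windows. They occurred in the windows of 4 of the 8 OAS genes, Oas1a, Oas1g, Oas3 and Oas1c. These genes sit in one cluster, and whether their responses to the knockout differ from each other was not tested. Their windows are shown here. Each is written along its own gene, with the matched letters in capitals and 40 bases on either side.
Oas1a, chr5:120907490-120907585, minus strand: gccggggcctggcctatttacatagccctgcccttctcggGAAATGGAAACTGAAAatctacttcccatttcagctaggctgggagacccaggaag
Oas1g, chr5:120887576-120887671, minus strand: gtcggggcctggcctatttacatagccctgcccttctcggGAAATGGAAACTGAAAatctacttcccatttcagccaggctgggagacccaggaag
Oas3, chr5:120777685-120777774, minus strand: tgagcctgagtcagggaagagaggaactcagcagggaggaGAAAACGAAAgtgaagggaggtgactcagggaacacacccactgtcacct
Oas1c, chr5:120812573-120812668, minus strand: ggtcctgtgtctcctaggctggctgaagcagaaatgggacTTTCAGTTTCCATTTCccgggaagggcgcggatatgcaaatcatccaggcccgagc
Oas1a and Oas1g held the same block of 16 bases, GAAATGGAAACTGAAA, made of 2 overlapping matches. Distances are counted from the RefSeq start, which for Oas1a and Oas3 lies a few bases from that of the tables, and for Oas1b from the start in the tables. The block lay 20 to 5 bases before the gene start in Oas1a and 18 to 3 bases before it in Oas1g, and the 2 windows of 300 bases were 85.3% identical when aligned. In Oas1c the same block stood on the opposite strand, 114 to 99 bases before its start. There it pointed towards Oas1b, whose start lies 121 bases from that of Oas1c on the other strand and 7 bases beyond the last base of the block. Only 7 of all windows (0.0213%) held this block, those of Oas1a, Oas1g, Oas1c, Apol9a and Apol9b. In Oas3 a single match began 75 bases before the start. The windows of Oasl1, Oasl2, Oas1f and Oas1h held no such letters. The letters of a STAT element, TTCNNNGAA, occurred in 8.3% of all windows and, among the OAS genes, in that of Oas1a. A match of letters describes the sequence and says nothing of binding.

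In crypts all 6 genes were higher in KO-IEC than in WT, by 2.28-fold for Oas1a to 5.01-fold for Oas3, and the median log2 fold change of the 6 was 1.68 against -0.01 over all 13427 genes tested. The 4 KO-IEC values of each gene lay above its 4 WT values, which was the case for 8.7% of all genes tested. All 6 were among the genes called at an adjusted p under 0.05 by the quasi-likelihood test of edgeR (6.96% of all genes, 4.3% when only higher ones are counted), and nothing is read from this count because the genes were chosen with it known. In bulk RNA a higher level per cell and a larger share of expressing cells cannot be told apart.

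Among the enzymes, Oas1a was the most abundant per length. Its values were 36.8, 36.0, 27.6 and 24.1 CPM in the WT crypts and 74.7, 88.1, 60.3 and 60.7 CPM in the KO-IEC crypts. This was the smallest difference of the 6 (log2 fold change 1.19 ± 0.17, SE). Its near copy Oas1g stood at 17.4, 12.9, 12.7 and 11.9 CPM in WT, whereas the KO-IEC values were 41.5, 45.9, 37.4 and 37.1 CPM (1.56 ± 0.14). Oas1g had the tightest KO-IEC values of the 6 for its level.

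Oas3 showed the largest difference. Its values were 16.3, 16.3, 6.14 and 11.5 CPM in WT against 46.7, 84.5, 74.5 and 45.3 CPM in KO-IEC (2.33 ± 0.32). WT replicate 3 was the lowest library, and KO-IEC replicates 2 and 3 were the highest. Oas2, the scarcest of the 6, stood at 5.72, 4.14, 2.63 and 3.05 CPM in WT, whereas the KO-IEC values were 14.2, 21.7, 12.6 and 8.34 CPM (1.88 ± 0.33).

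Oasl2 had the highest values in CPM, at 52.7, 45.1, 27.2 and 39.6 in WT and 120, 177, 146 and 108 in KO-IEC (1.75 ± 0.22). As for Oas3, WT replicate 3 was the lowest and KO-IEC replicate 2 the highest library. Oasl1 stood at 23.4, 17.6, 13.8 and 17.6 CPM in WT, whereas the KO-IEC values were 36.3, 59.3, 56.4 and 70.0 CPM (1.62 ± 0.22). Unlike the other genes, Oasl1 was highest in KO-IEC replicate 4.

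**Figure D1:**
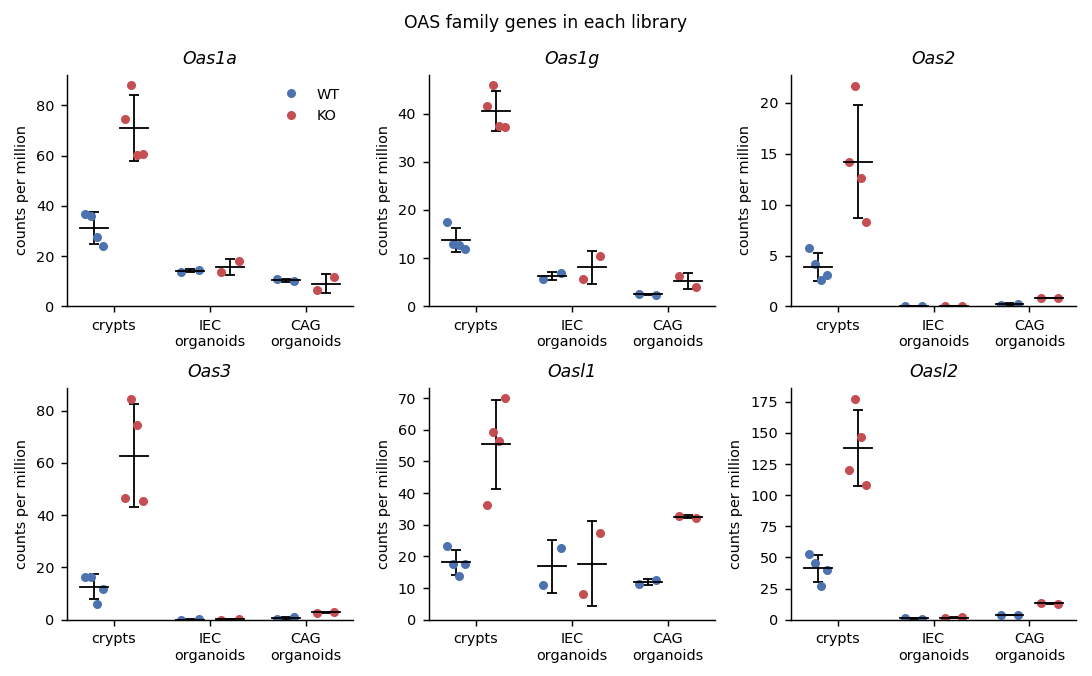
Level of the 6 OAS genes in CPM (y axis, from 0, its own scale in each panel) in every library of the crypts, IEC organoids and CAG organoids; points are libraries, WT in blue and KO in red, with the mean and SD in black. In crypts the KO values of every gene lie above the WT values, for Oasl2 from 108 CPM up against at most 52.7 CPM.

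Other features of the crypt libraries moved with genotype. Of 8 enterocyte markers all were higher in KO-IEC and 1 was called, with a summed level of 1893 to 7978 CPM in WT against 7588 to 18842 CPM in KO-IEC. Of 5 stem cell markers none was higher and 2 were called lower. All 6 T cell markers were higher and none was called, with sums of 21.1 to 110 CPM in WT against 50.1 to 359 CPM in KO-IEC, whereas 6 myeloid markers summed to 7.66 to 11.8 and 4.53 to 11.5 CPM. Of 5 Paneth cell markers 1 was higher and none was called, with sums of 6828 to 12977 CPM in WT against 1330 to 8947 CPM in KO-IEC. Sums of 5 stromal markers were 4.17 to 7.34 CPM in WT against 0.952 to 4.22 CPM in KO-IEC, and those of 3 endothelial markers were 0.658 to 1.76 against 0.527 to 1.47 CPM, with none called. The part of the T cell, Paneth cell and stromal levels in the OAS values was not tested. With the enterocyte level as a covariate the log2 fold changes of the 6 genes were 1.10 to 1.84 (median 1.49). None of the 6 was called in that fit, which called only 1 of all 13427 genes tested. Among the libraries low in mitochondrial ribosomal RNA, KO-IEC exceeded WT by 0.99 to 2.02 on the log2 scale, and between the 2 middle libraries by 1.32 to 1.98.

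In crypts the direction of each of the 6 genes held in all 18 alternatives, but the calls did not. Leaving out WT replicate 2, KO-IEC replicate 2 or KO-IEC replicate 3 left Oas1g alone called. Leaving out WT replicate 1 or WT replicate 3 left 3 of the 6, and the number of all genes called fell from 934 to between 2 and 20 in these 5 fits. Which of the 6 stayed called is not read as a result, since they were chosen with this contrast known.

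The values of the 6 genes within a group also moved together in crypts. Over the 8 crypt libraries, with each gene centred on its group mean, the median of the 15 pairwise Pearson correlations was 0.64. Oas3 and Oasl2, which lie in different parts of the chromosome, were the closest pair (0.97). Oasl1 and Oas1a were the least alike (0.10), and Oasl1 and Oas2 came next (0.17). Depth, composition and mitochondrial class differed between these libraries and their part was not tested, so the values are descriptions of 8 libraries. Over all 16 libraries the 6 pairs among Oas1a, Oas1g, Oasl1 and Oasl2 had a median of 0.51. It is not set against the median of the 15 crypt pairs, which include Oas2 and Oas3. The lowest pair was the near copies Oas1a and Oas1g, at 0.20 (0.80 over the crypts alone). The highest was Oas1g and Oasl1, at 0.66 (0.30 over the crypts alone). Outside the 6 genes, those most like the mean of Oas1a, Oas1g, Oasl1 and Oasl2, the 4 that passed the filter in all experiments, over 16 libraries were Zadh2 (Pearson r = 0.93), Plcb3 (0.93), Thra (0.92), Vps37d (0.91), Snx20 (0.91), Casz1 (0.91), Mark4 (0.90) and Arhgap27 (0.90), of 12478 genes compared.

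**Figure D2:**
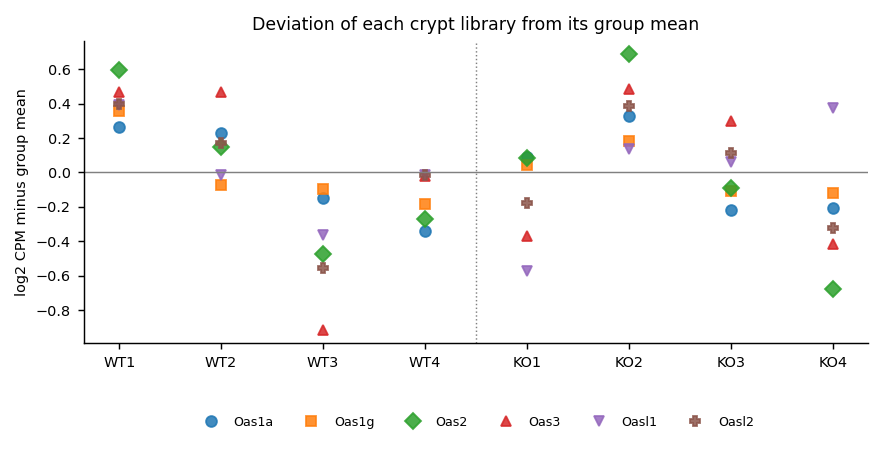
Deviation of each of the 6 OAS genes from its group mean (y axis, log2 CPM) in the 4 WT and 4 KO-IEC crypt libraries (x axis); each symbol is a gene. All 6 lie above 0 in WT1 and KO2 and below 0 in WT3. In KO4 Oasl1 alone lies above 0, and in KO1 Oasl1, Oas3 and Oasl2 lie below 0 and the others above.

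In IEC organoids the 4 genes that passed the filter had log2 fold changes of 0.08 to 0.73, and Oas2 and Oas3 were nearly without counts. A single gene of 13938 was called (0.00717%), and it was none of the 6. Oas1a stood at 13.8 and 14.6 CPM in WT, whereas the KO-IEC values were 13.5 and 17.9 CPM (0.15 ± 0.25). Oas1g had 5.75 and 6.89 CPM in WT against 5.72 and 10.5 CPM in KO-IEC (0.35 ± 0.39). Both ranges overlapped between genotypes. Oasl1 varied more between replicates than between genotypes, with 10.9 and 22.7 CPM in WT against 8.18 and 27.3 CPM in KO-IEC (0.08 ± 0.66, and between -1.03 and 0.70 when single libraries were left out). Oasl2 was at 1.03 and 0.928 CPM in WT against 1.26 and 2.02 CPM in KO-IEC (0.73 ± 0.48), the only one of the 4 genes that passed the filter whose groups did not overlap (19.4% of all genes tested had KO above WT without overlap). Oas2 had 0 and 0 counts in WT and 1 and 0 in KO-IEC. Oas3 had 0 and 2 counts in WT and 0 and 3 in KO-IEC, so for these 2 genes a difference was not detectable at this depth. The simulated recovery of 2-fold changes in this experiment was 6%, so a change of that size would mostly go uncalled. In CAG organoids, also with 2 libraries per group, it was 84.8%. The 2 KO-IEC libraries were unlike each other (chi-square per gene 109, against 25.6 for WT). Enterocyte markers summed to 4308 and 12915 CPM in KO-IEC against 5710 and 9861 in WT, and stem cell markers to 1466 and 335 against 2423 and 3588. None of these markers was called, and their part in the OAS values was not tested.

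In CAG organoids 5 of the 6 genes had higher levels in both KO-CAG libraries than in both WT libraries, and Oas1a did not. Among all genes tested, 31.5% were called and 35.5% had KO above WT without overlap. Of the 5 genes that passed the filter 4 were called, Oas1g, Oas3, Oasl1 and Oasl2, and nothing is read from this count. Oasl1 rested on the most reads and stood at 11.3 and 12.7 CPM in WT against 32.9 and 32.1 CPM in KO-CAG (log2 fold change 1.44 ± 0.14). Oasl2 stood at 3.84 and 3.75 CPM in WT against 13.5 and 12.8 CPM in KO-CAG (1.79 ± 0.21). In both genes the gap between genotypes was many times the gap between replicates. Oas3 had 1 and 7 counts in WT and 19 and 31 in KO-CAG, where it passed the filter only through the KO group (2.46 ± 0.58). Oas2 had 1 and 2 counts in WT and 6 and 9 in KO-CAG, a ratio of 4.46 relative to total counts (95% interval 1.26 to 24.0, exact binomial, counting error only).

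The near copies Oas1a and Oas1g parted in this experiment. Oas1g was at 2.52 and 2.45 CPM in WT against 6.38 and 4.03 CPM in KO-CAG (1.03 ± 0.33). Oas1a was at 10.8 and 9.95 CPM in WT against 6.38 and 11.7 CPM in KO-CAG (-0.16 ± 0.27), so KO-CAG replicate 1 lay below and replicate 2 above both WT libraries. Oas1a had 4.29 and 4.05 counts for each count of Oas1g in the 2 WT libraries, but 1.0 and 2.90 in KO-CAG. In all crypt and IEC organoid libraries this ratio was between 1.61 and 2.80.

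In CAG organoids 7 of 8 enterocyte markers were called higher, with sums of 4587 to 4949 CPM in WT against 9992 to 12619 CPM in KO-CAG. All 5 Paneth cell markers were higher and 4 were called, with sums of 2540 to 2841 CPM in WT against 4626 to 5176 CPM in KO-CAG. Of 5 stem cell markers 1 was higher and 2 were called lower, with sums of 2811 to 3318 against 2308 to 2706 CPM. Of 6 myeloid markers 1 was called higher, with sums of 3.62 to 4.68 against 5.75 to 8.87 CPM. The part of these markers in the OAS values was not tested. The summed level of T cell markers was at most 0.767 CPM in all organoid libraries, with Cd8a, Gzma and Gzmb at 0 counts. Of the 6 genes the Wald test of DESeq2 called Oasl1 and Oasl2, with 2530 of 26255 genes called in total. Fitting all 16 libraries together left Oasl2 alone, with 477 of 15585 genes called. Nothing is read from these calls, since the 6 genes were chosen with their difference known. When single libraries were left out, the log2 fold change of Oas3 was between 1.61 (without WT replicate 1) and 4.39 (without WT replicate 2).

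**Figure D3:**
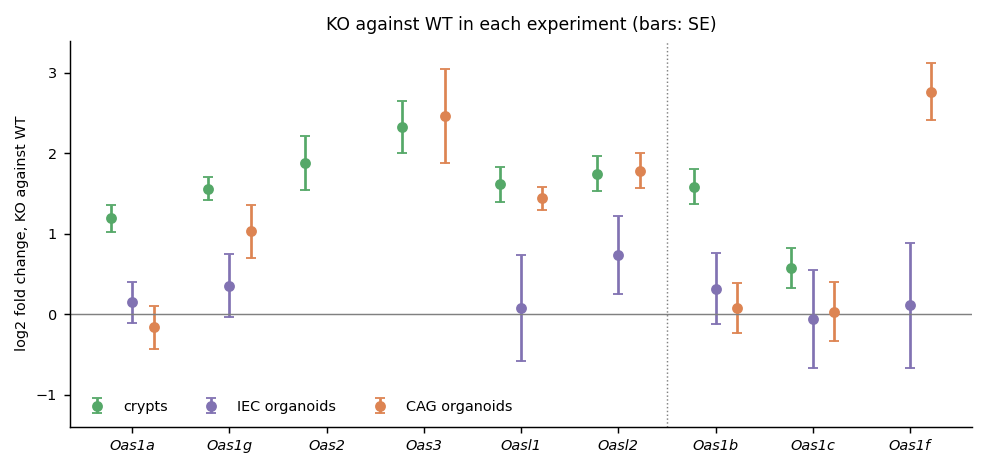
Log2 fold change of KO against WT (y axis) with its SE for OAS genes that passed the filter in the crypts, IEC organoids and CAG organoids; the 6 chosen genes stand left of the dotted line and 3 other family members right of it. Oas1a and Oas1b are near 0 in CAG organoids and above 1 in crypts, whereas Oas1f reaches 2.77 in CAG organoids.

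The other 6 genes of the family were not used to choose the 6, and 3 of them passed the filter in at least one experiment. Oas1b, known for resistance to flaviviruses and annotated here as a polymorphic pseudogene, rose in crypts from 1.65 ± 0.386 to 4.96 ± 0.409 CPM (SD, n = 4 each; log2 fold change 1.59 ± 0.22, edgeR adjusted p = 0.0226). This call held in 10 of 18 alternatives, with adjusted p between 6.19e-06 and 0.722. In CAG organoids Oas1b stood at 2.76 and 4.13 CPM in WT against 3.61 and 3.64 CPM in KO-CAG (0.08 ± 0.31, adjusted p = 0.872). The difference between these 2 effects was -1.52 ± 0.38 on the log2 scale and missed the threshold (edgeR interaction, adjusted p = 0.0947 over 15585 genes, of which 0.372% were called). Oas1c, which shares its promoter region with Oas1b, was at 1.79 ± 0.407 CPM in WT crypts against 2.66 ± 0.470 CPM in KO-IEC crypts (0.57 ± 0.25, edgeR adjusted p = 0.151) and was not called in either organoid experiment.

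In CAG organoids Oas1f had 6 and 9 counts in WT and 50 and 63 in KO-CAG and passed the filter only through the KO group. Its level was 0.942 ± 0.313 against 6.49 ± 0.630 CPM (SD, n = 2 each; log2 fold change 2.77 ± 0.36). This is given without a test, because the gene entered the fit through its KO values. In the fit of all 16 libraries Oas1f was not called. In that fit its effect in CAG organoids minus that in crypts was 3.46 ± 1.15 (edgeR adjusted p = 0.195). In crypts Oas1f did not pass the filter, with 6, 1, 10 and 5 counts in WT and 4, 1, 0 and 7 in KO-IEC, and in IEC organoids its log2 fold change was 0.11 ± 0.77 (edgeR adjusted p = 0.981). In crypts Oas1h had 5 counts over the 4 WT libraries and 28 over the 4 KO-IEC libraries, a ratio of 5.76 relative to total counts (95% interval 2.20 to 19.1, exact binomial, counting error only). Oas1d and Oas1e had at most 12 counts in any group.

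Levels of the genes were compared per kilobase of gene length, since longer genes collect more reads. In WT crypts Oas1a led with 16.5 ± 3.32 CPM per kb (SD, n = 4), and its lowest library was above every value of the next gene. Oasl1 (6.93 ± 1.52), Oasl2 (6.46 ± 1.69) and Oas1g (5.87 ± 1.06) followed with overlapping ranges. Oas3 (1.78 ± 0.682) and Oas2 (0.872 ± 0.309) were lower and overlapped each other. In WT organoids Oas1a and Oasl1 remained on top, at 7.53 ± 0.293 and 6.45 ± 3.20 CPM per kb in IEC organoids and 5.51 ± 0.323 and 4.59 ± 0.372 CPM per kb in CAG organoids (n = 2 each). Oasl2, by contrast, was at 0.154 ± 0.0119 and 0.596 ± 0.0108 CPM per kb. In KO-CAG organoids Oasl1 led with 12.5 ± 0.199 CPM per kb, ahead of Oas1a with 4.79 ± 2.00 and Oas1f with 4.38 ± 0.426.

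WT organoids were then compared with WT crypts, a contrast that the choice of the genes did not use and that was added after the data were seen. Oas1a, Oas1g and Oasl2 were called lower in both kinds of organoid, where 17.1% of all genes tested were called lower in IEC organoids and 18.9% in CAG organoids. The log2 difference for Oasl2 was -5.36 ± 0.35 in IEC organoids (edgeR adjusted p = 1.27e-07) and -3.62 ± 0.31 in CAG organoids (adjusted p = 2.17e-06). Oas1a differed by -1.13 ± 0.24 (edgeR adjusted p = 0.00327) and -1.77 ± 0.26 (0.000195), and Oas1g by -1.11 ± 0.25 (0.00419) and -2.65 ± 0.30 (2.46e-05). Oasl1 was not called, with -0.10 ± 0.40 (adjusted p = 0.868) and -0.78 ± 0.43 (0.171). Oas3 had 576 counts over the WT crypts against 2 over the WT IEC organoids, a ratio of 202 relative to total counts (95% interval 55.6 to 1671, exact binomial, counting error only), and 8 over the WT CAG organoids, a ratio of 25.2 (12.7 to 58.5). Oas2 had 179 counts over the WT crypts and 0 over the WT IEC organoids and was thus at least 41.8-fold higher in crypts, taking 3 counts over the group as the floor. Of the WT groups only the crypts brought Oas2 and Oas3 past the filter of this contrast, so both are given as counts, without a test. Oas1b went the other way in CAG organoids, by 0.87 ± 0.27 (edgeR adjusted p = 0.0227). Markers of other cells also differed between the WT groups. T cell markers summed to 21.1 to 110 CPM in crypts, 0.46 to 0.464 CPM in IEC organoids and 0 to 0.12 CPM in CAG organoids, myeloid markers to 7.66 to 11.8, 0.862 to 2.36 and 3.62 to 4.68 CPM, and stromal markers to 4.17 to 7.34, 0.115 to 0.398 and 0.258 to 0.481 CPM. Their part in the OAS values was not tested. Culture, preparation and experiment differ together between crypts and organoids and cannot be told apart.

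**Figure D4:**
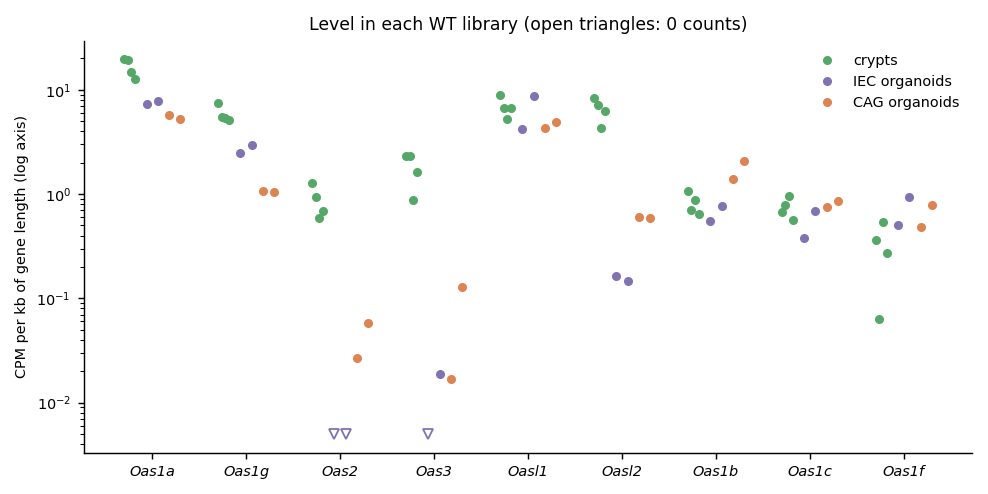
Level of OAS genes in each WT library in CPM per kb of gene length (y axis, log scale) in crypts, IEC organoids and CAG organoids; open triangles at the bottom mark libraries with 0 counts. Oas2, Oas3 and Oasl2 are far lower in both kinds of organoid than in crypts, whereas the values of Oasl1 overlap between crypts and IEC organoids.

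The 76 further genes of the pathway, taken from lists made with earlier results of these data known, were read by their role. The counts and p-values of these genes are therefore descriptions, and no excess over all genes is read from them. In crypts 28 of the 61 that passed the filter were called higher and none lower, against 4.3% of all genes tested called higher. In CAG organoids 24 of 53 were called higher and 3 lower, against 18.1% called higher. Below, a pathway gene that rose or fell is one called higher or lower. The 24 included Oas1f and Isg15, which passed the filter only through the KO group. In IEC organoids edgeR called none of the 52, of which 2 had an unadjusted p under 0.05, and the Wald test of DESeq2 called none either.

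In the arm downstream of the OAS enzymes no gene was called higher, and none of its 4 genes was called at all in crypts. Abce1, which is also known for its part in ribosome recycling, gave log2 fold changes of -0.07 ± 0.17 in crypts (edgeR adjusted p = 0.801) and 0.08 ± 0.09 in CAG organoids (0.523). Akap7, which has a domain that degrades the oligoadenylate messenger, fell in CAG organoids by 0.56 on the log2 scale (adjusted p = 0.002).

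Interferon genes themselves were hardly detected. Of 11 listed, 4 had 0 counts in all 16 libraries, and the highest count in any library was 4, for Ifnk. None passed the filter. Of 9 receptor and kinase genes 4 rose in crypts and 5 in CAG organoids. Ifnlr1, a chain of the receptor for type III interferon, rose by 0.81 ± 0.19 in crypts (edgeR adjusted p = 0.046) and 0.70 ± 0.18 in CAG organoids (0.013). Its crypt call held in 7 of 18 alternatives. Ifnar2, of the type I receptor, rose in CAG organoids by 1.12 ± 0.17 (edgeR adjusted p = 0.000938), and in crypts its value was 0.43 ± 0.23 (0.23).

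Among 10 STAT and IRF genes, 2 rose in crypts, Irf7 and Stat2, while 4 rose and 2 fell in CAG organoids. Irf7, which amplifies interferon production, went from 41.3 ± 14.1 to 108 ± 18.8 CPM in crypts (log2 fold change 1.39 ± 0.22, edgeR adjusted p = 0.0298) and from 7.84 ± 2.08 to 28.5 ± 7.91 CPM in CAG organoids (1.85 ± 0.24, adjusted p = 0.000363). Stat2 rose by 0.69 ± 0.18 in crypts (edgeR adjusted p = 0.0493) and 0.53 ± 0.11 in CAG organoids (0.00463). Its crypt call was close to the threshold and held in 6 of 18 alternatives. Irf9, the partner of Stat2, gave 0.50 ± 0.13 in crypts and missed the threshold (edgeR adjusted p = 0.0533), but rose by 0.50 ± 0.15 in CAG organoids (0.0298). Irf8 fell in CAG organoids by 0.48 on the log2 scale (edgeR adjusted p = 0.00398).

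Of 11 sensors and adaptors 5 rose in crypts and 4 of the 10 that passed the filter in CAG organoids. Ddx58 (RIG-I) and Ifih1 (MDA5), which sense viral RNA, rose in both. Ddx58 rose by 1.15 ± 0.16 in crypts (edgeR adjusted p = 0.0226) and 0.89 ± 0.15 in CAG organoids (0.00178), and Ifih1 by 0.82 ± 0.13 (0.0263) and 0.64 ± 0.13 (0.00396). Usp18, which dampens interferon receptor signalling, had the largest change of 5 inhibitors in crypts, from 3.76 ± 1.55 to 17.6 ± 2.04 CPM (log2 fold change 2.23 ± 0.28, edgeR adjusted p = 0.0226). In CAG organoids Usp18 did not pass the filter, with 9 counts over the WT libraries and 27 over the KO-CAG libraries.

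Of 20 further interferon-stimulated genes 15 rose in crypts, and 9 of the 14 that passed the filter rose in CAG organoids. In IEC organoids none of the 12 that passed the filter was called, with log2 fold changes of -1.68 to 0.75. Their median was -0.35 there, against medians of 1.74 in crypts and 1.33 in CAG organoids for those that passed the filter. The largest log2 fold changes in crypts were those of Trim30a (2.79 ± 0.42, edgeR adjusted p = 0.0258), Ifi44 (2.47 ± 0.47, 0.0397) and Ddx60 (2.22 ± 0.30, 0.0226). In CAG organoids they were those of Isg15, Ifit1 and Ifit1bl1. Isg15, a ubiquitin-like modifier, passed the filter only through the KO group, so its value (2.49 ± 0.41) is given without a test. Ifit1, which binds viral RNA ends, gave 2.16 ± 0.32 (edgeR adjusted p = 0.000806), and Ifit1bl1 gave 2.13 ± 0.27 (0.000332). Irgm1, an interferon-inducible GTPase, was called in none of the experiments, with 0.20 ± 0.20 in crypts (edgeR adjusted p = 0.52), -0.34 ± 0.22 in IEC organoids (0.856) and 0.15 ± 0.14 in CAG organoids (0.442). None of the 31 named pathway genes in the joint fit of 16 libraries had an effect in CAG organoids that differed from that in crypts at an adjusted p under 0.05, and 6 of 31 did so at an unadjusted p under 0.05. The count of 28 pathway genes in crypts fell to 0 with the enterocyte covariate, with the mitochondrial class as a covariate, or without WT replicate 2, KO-IEC replicate 2 or KO-IEC replicate 3. Those 5 fits called 1 to 3 of all genes, against 934 in the main fit. Without WT replicate 1 the count was 9, with 20 of all genes called, and without WT replicate 3 it was 4, with 11 called.

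**Figure D5:**
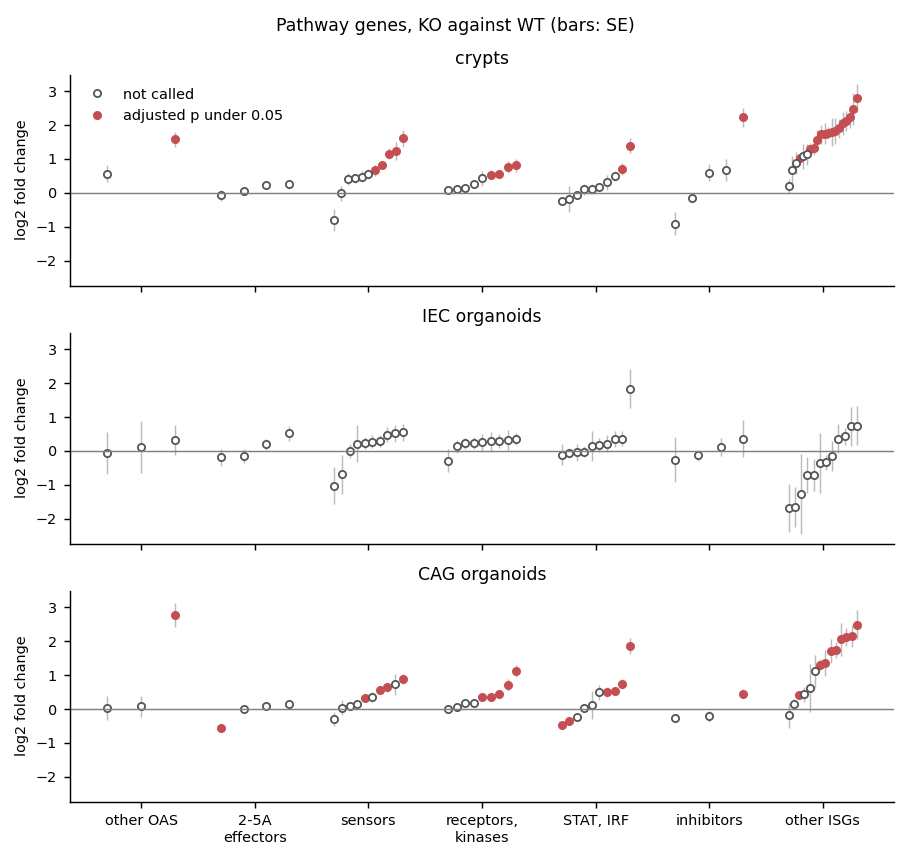
Log2 fold change of KO against WT (y axis) with its SE for each pathway gene that passed the filter, by list (x axis), in crypts, IEC organoids and CAG organoids; filled points have an adjusted p under 0.05. The called genes of the crypts lie above 0, whereas in CAG organoids 3 genes, Akap7 and Irf8 among them, are called below 0.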

How the data were processed

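RNA of 16 samples was sequenced by Novogene. What the authors deposited was a table of raw counts by gene for each experiment, with no scaling. The submitters' processing notes name HISAT2 2.0.5 and featureCounts 1.5.0-p3. The genome build and strand setting were not given in the sources used here. Columns were joined to samples by name. No pair of the 16 replicate pairs agreed within sampling noise (chi-square per gene of at least 4.03).

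Each experiment was fitted separately, KO against WT, with edgeR 4.0.16 in R 4.3.3 (filterByExpr, TMM, quasi-likelihood F test), and p-values were adjusted by Benjamini-Hochberg over every gene that passed the filter. Called means an adjusted p under 0.05. SE is the log2 fold change over the root of its F statistic. CPM used TMM library sizes, and log2 CPM used a prior count of 2. Ratios of low counts are relative to total counts. On counts simulated from these libraries, 60% of 2-fold changes were recovered in crypts, 6% in IEC organoids and 84.8% in CAG organoids.

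The genes and lists were chosen with earlier results of these data known. Besides the 6 genes, the text names Cul4b, the other OAS genes, 8 fixed pathway genes, up to 3 further called genes with the largest change per list and experiment, and the 8 genes most like the OAS mean. Tlr3 and other called list members are only counted, and some genes that the rule names are not reported here. Apol9a, Apol9b and the neighbouring genes were chosen after their values were seen. Alternatives were the replicate block, size factors and the Wald test of DESeq2 1.42.0, library size alone, other filters, all 16 libraries in one fit, covariates, a fold minimum of 2 and leaving out each library. The fit without WT crypts of the high mitochondrial class and the contrast of WT groups were added after seeing the data. Replicate numbers did not pair the crypt samples (correlations of -0.04, 0.19, -0.40 and 0.43).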

Additional observations from a re-analysis of the deposited data

Results flagged for a closer look

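In 78 groups of 4 crypt libraries examined for a library far from the others, 4 were found, and about 1 in 20 is given by chance. Oas1g was highest in WT replicate 1, at 17.4 CPM against 11.9 to 12.9 CPM in the other WT crypts. Ifit1 was highest in the same library, at 20.2 CPM. Zbp1 and Trim30a were lowest in WT replicate 3, at 10.8 and 1.12 CPM. No pathway gene named here had an effect that differed between CAG organoids and crypts by the test of the difference.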

How the results depend on the processing

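The log2 fold changes of the 6 genes did not change sign in crypts under any alternative. Of 108 such values 107 stayed within the spread between replicates. In CAG organoids 47 of 54 and in IEC organoids 40 of 44 did so, and none of the called genes turned direction. Signs of uncalled members did change. In IEC organoids the sign held in 7 of 11 alternatives for Oasl1 and in 10 of 11 for Oas1a and for Oas1g. In CAG organoids it held in 10 of 11 for Oas1a. The median over the 6 genes stayed near its value except in IEC organoids, where leaving out single libraries gave -0.10 to 0.71.

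Counts of calls moved more, and the causes were not tested. Nothing is read from the counts of members, which were chosen with the contrast known, or of pathway genes, whose lists were made with earlier results known. In crypts the number of members called was 0 with the enterocyte covariate, 0 with the mitochondrial class covariate and 0 without the WT libraries of the high class, and pathway genes fell to 0 in all of these, while genes called over the whole table fell from 934 to 1, 2 and 1. All 16 libraries together (1660), no filter (1479) and the Wald test (2362) were among the fits that gave more calls. Leaving out single libraries gave 1 to 6 members, 0 to 33 pathway genes and 2 to 2468 genes. In IEC organoids the single call became 18 with all 16 libraries, 223 with no filter (1 pathway gene) and 26 with the Wald test, and 0 to 2322 genes (0 to 9 pathway genes) when a library was left out, the lone sample being assumed to vary like the other group. In CAG organoids all 16 libraries gave 477 genes, 7 pathway genes and 1 member, the Wald test gave 2530 genes and 2 members, a fold minimum gave 11 pathway genes, and leaving out single libraries gave 2 to 4 members and 2792 to 4721 genes. The contrast of WT groups was fitted in 1 way only.

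With the replicate block, crypts gave 4 genes, 2 members (Oas1a and Oas1g) and 0 pathway genes. In 2 of the 4 crypt pairs a sample correlated best with its own number, so the numbers were taken as names. In organoids the block left the members' calls at 0 and 4. Depth limits Oas2 and Oas3 in organoids, where 3 counts are 0.178 to 0.408 CPM.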

Other observations

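Of the genes within 100000 bases of the 6 OAS genes, outside the family, none of 9 was called in crypts and none of 10 in IEC organoids by edgeR. Of all genes tested 6.96% and 0.00717% were called there. In CAG organoids, where 31.5% of all genes tested were called, 2 of the 10 neighbours were called higher and 2 lower, so nothing is read from this count. The largest of these values was that of Rasal1, a Ras GTPase activating protein that lies beyond Oas2 (log2 fold change 2.06 ± 0.28, edgeR adjusted p = 0.00051), which stood at -1.59 ± 0.59 in IEC organoids (0.856) and did not pass the filter in crypts. Genes that overlap an OAS gene, such as the antisense gene Gm13822 at Oasl1, had at most 21 counts over all libraries of an experiment.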
